A study of Homo sapiens with 36 samples.

Results

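The comparison described here is that of LoVo cells given 1000 nM of a MEK inhibitor with LoVo cells given the solvent DMSO. LoVo is an established human colorectal cancer cell line. The libraries were chosen by their titles: 3 libraries at 1000 nM and 6 DMSO libraries, 9 of the 36 in the series, and 20802 genes that remain once spike-in controls are left out. The series is a dose response with 10 doses from 0.03 to 1000 nM, each with 3 libraries, sequenced as amplicons from total RNA. All cells were grown in the same serum-containing medium and treated for 24 hours. The inhibitor is identified only by a literature citation. The DMSO libraries are 3 labelled chip 1 and 3 labelled chip 2, and the treated libraries carry no chip label. The labels speak of biological replicates and do not tell how cultures were kept apart, and the p-values thus refer to the variation among the libraries at hand, some of it possibly technical.

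MEK is the kinase that phosphorylates and activates ERK, the last kinase of the RAS, RAF, MEK and ERK cascade. In colorectal cancer the cascade is often driven by mutant RAS or RAF, and its first transcriptional targets are feedback phosphatases, SPRY proteins and ETS family factors. ERK is also known to act on protein synthesis, nutrient use, cell shape and survival, through its kinase substrates and through MYC. The genes given below were chosen outside the classic ERK targets, with the transport of proteins, metabolism, signalling pathways other than MAPK and the secreted and surface proteins in view.

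Treatment and cells were checked first. DUSP6, the phosphatase that ERK signalling induces against itself, had 1.41, 2.34 and 1.93 CPM at 1000 nM, against 58.5, 63.7 and 69.5 CPM in DMSO (CPM, the counts scaled to a common library size, given for replicates 1, 2 and 3 at 1000 nM and as the lowest, median and highest of 6 DMSO libraries, here and below). Its log2 fold change was -5.06 ± 0.20 (SE, adjusted p = 1.10e-26). All 15 colorectal epithelium markers in the matrix were detected, with a sum of 5670 to 6230 CPM at 1000 nM, against 4850 to 5050 CPM in DMSO. Of these 15, 7 rose and 5 fell. KRT19 and TSPAN8 averaged 1500 and 997 CPM at 1000 nM, against 660 and 344 CPM in DMSO. CDH17 and CEACAM5 averaged 223 and 84 CPM at 1000 nM, against 350 and 244 CPM in DMSO. Fibroblast markers summed to 77.7 to 85.5 CPM at 1000 nM, against 24.8 to 33.6 CPM in DMSO. COL1A2, COL6A3, THY1, FAP and POSTN, 5 of those 12 markers, were at 0 in the 9 libraries. All 4 fibroblast markers with enough counts to test rose. COL1A1, COL3A1 and LUM averaged 12.9, 16.8 and 10.9 CPM at 1000 nM, against 1.95, 1.24 and 0.632 CPM in DMSO. ACTA2 averaged 39.4 CPM at 1000 nM and 26.1 CPM in DMSO. Leukocyte markers summed to 78.1 to 96.7 CPM at 1000 nM, against 16.5 to 24.2 CPM in DMSO, and PTPRC, CD3D, CD3E, CD2 and FCGR3A were at 0. Endothelial markers summed to at most 1.46 CPM at 1000 nM and at most 1.75 CPM in DMSO. Totals ran from 2972186 to 4072743 counts over the 9 libraries. The replicates at 1000 nM lay farther from their group mean than the DMSO libraries did, with a root mean square deviation of 0.172 to 0.277 on the log2 scale at 1000 nM, against 0.128 to 0.15 in DMSO; replicate 1 had the highest value.

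At 1000 nM, 2561 genes rose and 2503 fell among 12102 genes with enough counts to test. A gene was called when edgeR's quasi-likelihood test against either DMSO chip gave a Benjamini-Hochberg adjusted p below 0.05 (for the larger of both p-values) with the same sign. The called share was 41.8% of tested genes, or 21.2% for rises and 20.7% for falls. Rises of at least 2-fold numbered 854 (7.06%) and falls of that size 822 (6.79%), and the median log2 fold change over all tested genes was 0.014. The 3 values at 1000 nM and the 6 DMSO values did not overlap for 5481 genes (45.3%). The genes described one by one below had to be called, to reach a mean of 5 CPM in whichever group was higher and to have no overlap between the groups, so the absence of overlap is a condition for naming and not a result. In bulk RNA, a smaller number of cells of a type and less RNA per cell cannot be told apart.

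The 8 largest rises outside the classic targets and the genes of an earlier account of these data included proteins of the epithelial surface and of innate defence. CFB, complement factor B of the alternative pathway, had 9.29, 5.56 and 4.34 CPM at 1000 nM, against 0, 0.548 and 1.26 CPM in DMSO. Replicate 1 was the highest at 1000 nM, and 1 DMSO library held no count of it. The log2 fold change was 3.47 ± 0.58 (SE, adjusted p = 1.14e-05), and 4.06 without DMSO chip 1 replicate 2; it was 4.08 against DMSO chip 1 and 2.85 against chip 2. PRSS8 encodes prostasin, a membrane-anchored serine protease of epithelia that activates the sodium channel ENaC, and had 10.98, 7.90 and 6.51 CPM at 1000 nM, against 0.504, 0.788 and 1.57 CPM in DMSO. The change was 3.18 ± 0.43 on the log2 scale (SE, adjusted p = 1.94e-07). SLC4A8, a sodium-driven exchanger of chloride and bicarbonate, had 13.8, 20.2 and 21.5 CPM at 1000 nM, against 1.02, 1.76 and 2.76 CPM in DMSO. Replicate 1 was the lowest of the treated libraries, and the log2 fold change was 3.24 ± 0.34 (SE, adjusted p = 2.09e-11).

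BCL2L15, a member of the BCL2 family of apoptosis regulators, had 14.9, 23.1 and 19.1 CPM at 1000 nM, against 1.01, 1.76 and 2.48 CPM in DMSO, a log2 fold change of 3.42 ± 0.33 (SE, adjusted p = 1.04e-12). SELENBP1, a selenium-binding oxidase of methanethiol found in differentiated colon epithelium, had 18.9, 20.2 and 19.1 CPM at 1000 nM, against 0.275, 2.35 and 3.07 CPM in DMSO. The treated libraries were close to each other while the DMSO libraries spread from near 0, and the log2 fold change was 3.15 ± 0.31 (SE, adjusted p = 1.30e-11). FAM151A, LOC154761 and TM4SF20, for which no function is given here, rose by 3.19 ± 0.36, 3.14 ± 0.25 and 3.09 ± 0.54 on the log2 scale (SE, adjusted p = 2.10e-09, 1.29e-14 and 1.95e-06). LOC154761 was the most counted of these 8, at 38.8 ± 4.41 CPM at 1000 nM, against 4.35 ± 0.449 CPM in DMSO (SD, n = 3 libraries at 1000 nM and 3 means of same-numbered DMSO libraries).

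The 8 largest falls chosen in the same way included enzymes of steroid and lipid metabolism, receptors and a secreted glycoprotein. HSD17B2, which oxidises estradiol and testosterone to less active steroids, had 3.10, 1.17 and 1.69 CPM at 1000 nM, against 15.8, 19.2 and 21.8 CPM in DMSO. That was a log2 fold change of -3.24 ± 0.31 (SE, adjusted p = 7.96e-12). STC2, the secreted glycoprotein stanniocalcin 2, had 14.4, 13.5 and 11.6 CPM at 1000 nM, against 96.1, 99.0 and 107 CPM in DMSO. Both groups were tight for this gene, which gave a log2 fold change of -2.94 ± 0.14 (SE, adjusted p = 7.88e-23). CXCR4, the receptor of the chemokine CXCL12, had 1.41, 4.10 and 3.38 CPM at 1000 nM, against 18.4, 24.2 and 26.6 CPM in DMSO, with replicate 1 the lowest. Its log2 fold change was -2.96 ± 0.27 (SE, adjusted p = 5.19e-13). IL1R2, a decoy receptor that binds interleukin 1 without signalling, had 4.22, 4.68 and 3.38 CPM at 1000 nM, against 26.7, 28.8 and 32.0 CPM in DMSO, and its log2 fold change was -2.83 ± 0.22 (SE, adjusted p = 1.45e-15).

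CYP2J2, an epoxygenase of arachidonic acid, had 12.4, 8.78 and 9.41 CPM at 1000 nM, against 64.04, 73.5 and 79.9 CPM in DMSO. The treated libraries lay within a narrow band far below DMSO, with a log2 fold change of -2.84 ± 0.15 (SE, adjusted p = 1.56e-21). ANKRD1, a nuclear ankyrin repeat protein known as a target of the YAP coactivator, fell to 0.611 ± 0.343 CPM at 1000 nM, against 5.79 ± 1.44 CPM in DMSO (SD), at -3.13 ± 0.63 (SE, adjusted p = 0.000151) on the log2 scale. RPS7, a protein of the small ribosomal subunit, also fell to 0.611 ± 0.343 CPM at 1000 nM, against 5.18 ± 0.742 CPM in DMSO (SD), a log2 fold change of -2.97 ± 0.54 (SE, adjusted p = 2.21e-05). Processed copies of ribosomal protein genes can share reads. RPS7 had 7 counts in all at 1000 nM and 107 over the 6 DMSO libraries, so its fall rests on few reads. Whether its amplicon measures RPS7 well was not tested. FAM222A-AS1, an antisense RNA, changed by -2.91 ± 0.48 (SE, adjusted p = 3.47e-06), and the files do not tell its reads from those of the opposite strand.

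**Figure D1:**
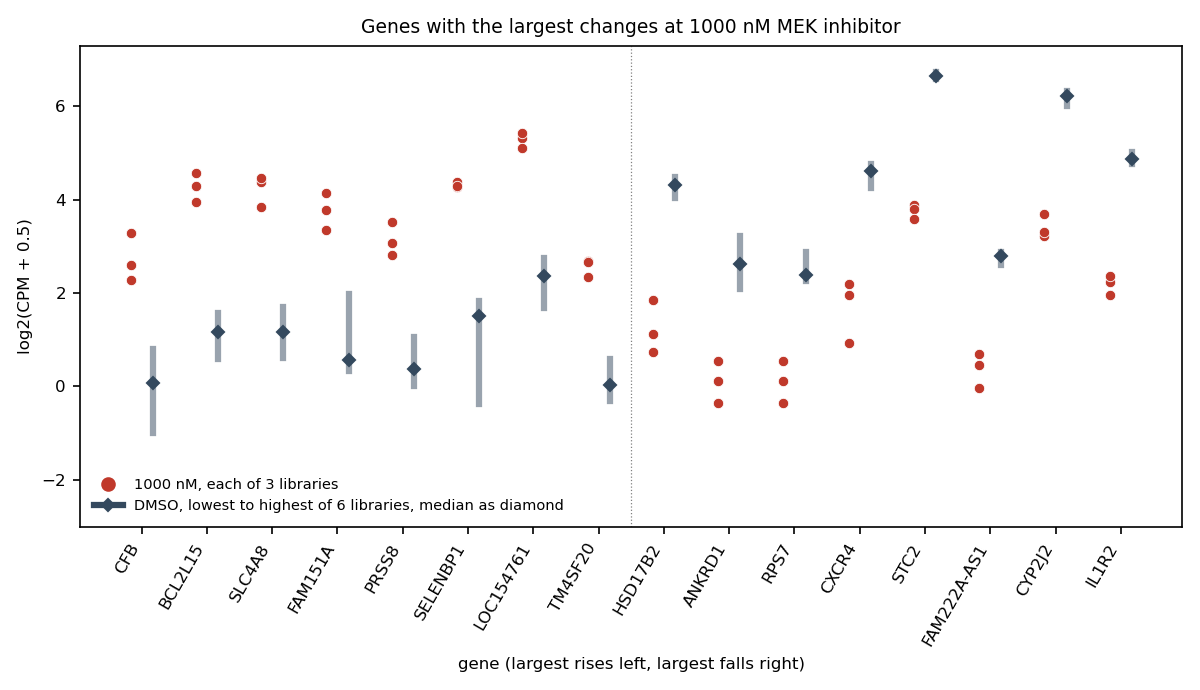
Levels of the 8 genes with the largest rises (left) and the 8 with the largest falls (right), as log2(CPM + 0.5). Red points are the 3 libraries at 1000 nM, and grey bars run from the lowest to the highest of 6 DMSO libraries with the median as a diamond. For CFB the red points lie between 4.34 and 9.29 CPM and the DMSO bar ends at 1.26 CPM; for STC2 they lie between 11.6 and 14.4 CPM and the DMSO bar starts at 96.1 CPM.

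Functions were then read through 28 gene lists, which held 1310 tested genes, of which 319 rose and 359 fell. A list is described by how many tested members rose or fell, beside the 21.2% and 20.7% of all tested genes, and by its median log2 fold change; lists received no test. Lists of machinery for making, folding, moving and degrading proteins had shares of falls of 46.7% to 67.6%. Lists of secreted proteases, plasma proteins and axon guidance proteins had shares of rises of 51.5% to 60%. A gene could pass the filter on the counts of a single dose, so a gene low in DMSO could be tested because it was high when treated. Shares of rises in lists with many such genes therefore depend in part on the filter. Shares for amino acid breakdown (21.3% in either direction) and for DNA and histone modifying enzymes (20.8% rose, 16.9% fell) were near those of all tested genes. Beside the members that the naming rule takes, further members are given by their fold change to show a role, and these were chosen after their values were seen. Of the 678 called members, 493 stayed called when each of the 9 libraries was left out in turn, and a member named below that did not is marked.

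**Figure D2:**
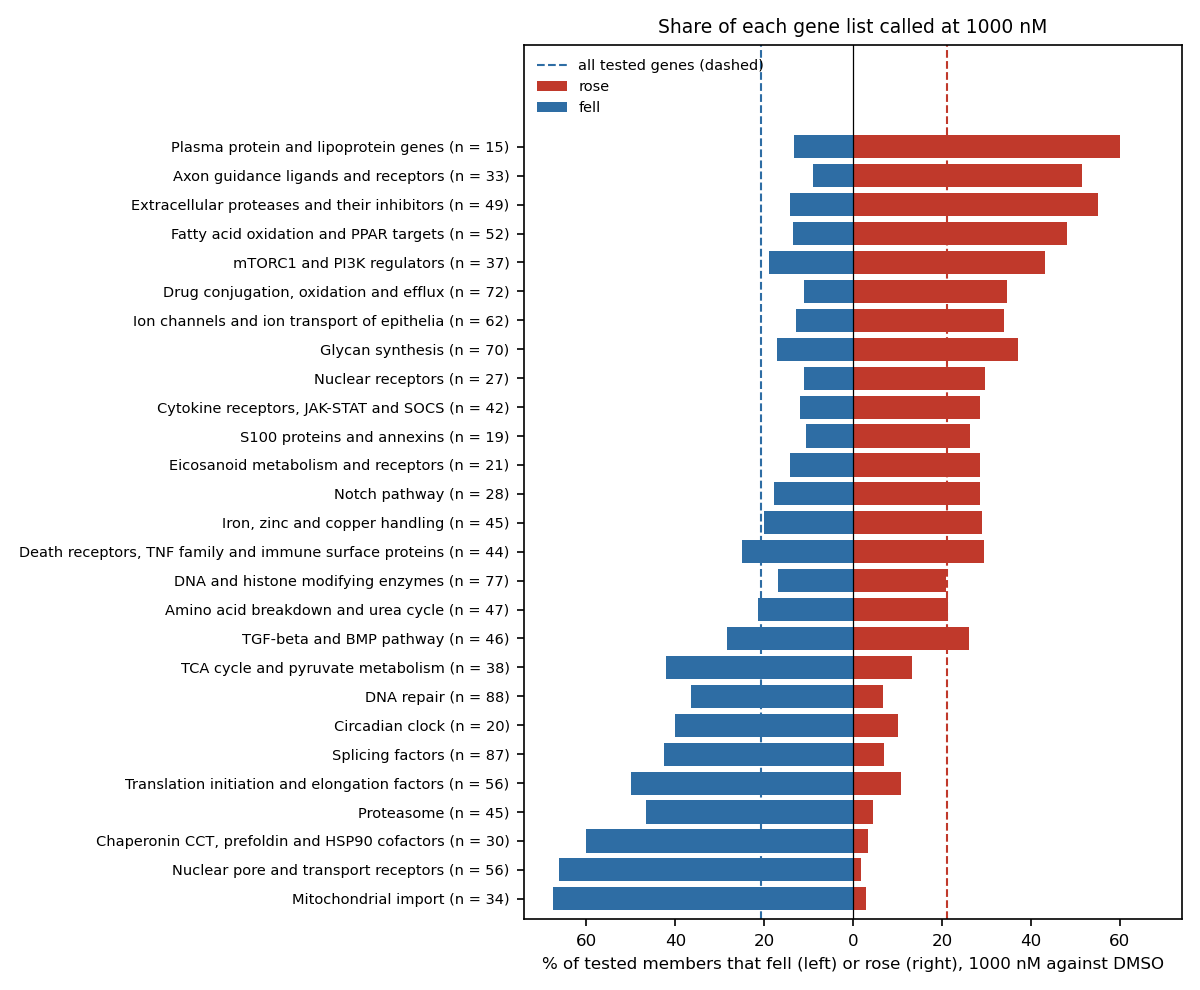
Percentage of tested members of 27 gene lists that fell (blue, left) or rose (red, right) at 1000 nM against DMSO, with the number tested in parentheses. Dashed lines mark the shares over all 12102 tested genes, 20.7% for falls and 21.2% for rises. Mitochondrial import has the longest bar on the left, at 67.6%, and plasma proteins the longest on the right, at 60%.

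Of 56 tested genes of nuclear pores and their transport receptors, 37 fell and 1 rose, with a median log2 fold change of -0.50. XPOT, the exportin that carries tRNA out of the nucleus, had 52.3, 60.6 and 68.5 CPM at 1000 nM, against 216, 237 and 254 CPM in DMSO. The groups were far apart, and the log2 fold change was -1.96 ± 0.11 (SE, adjusted p = 1.72e-20). The exportin of microRNA precursors, XPO5, changed by -1.19 ± 0.13 (SE, adjusted p = 4.82e-11). The importins IPO4 and KPNB1 changed by -1.61 ± 0.12 and -0.94 ± 0.10, the small GTPase RAN that gives transport its direction by -0.98 ± 0.09, its partner RANBP1 by -1.30 ± 0.11, and the pore protein NUP155 by -1.30 ± 0.12 (log2 fold change ± SE). XPO1, the main exportin of proteins, was at -0.30 ± 0.27 and did not pass the test. KPNA6, an importin alpha, was the 1 member that rose, with 235, 173 and 170.3 CPM at 1000 nM, against 134, 143 and 148 CPM in DMSO. Replicate 1 was well above the others, and without that library the adjusted p, 0.000844 with all libraries, became 0.0537.

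Mitochondrial import showed the same direction, with 23 of 34 tested members lower, 1 higher and a median of -0.55. Proteins made in the cytosol enter mitochondria through the TOM complex of the outer membrane and the TIM complexes of the inner one, and the chaperone HSPA9 pulls them in with its exchange factors GRPEL1 and GRPEL2. GRPEL2 had 27.02, 31.01 and 32.8 CPM at 1000 nM, against 99.6, 107 and 127 CPM in DMSO, a log2 fold change of -1.85 ± 0.12 (SE, adjusted p = 1.83e-17). Treated libraries varied little around 30.3 CPM. HSPA9, the channel protein TOMM40 and the motor subunit TIMM44 changed by -1.72 ± 0.09, -1.78 ± 0.12 and -1.60 ± 0.12 (log2 fold change ± SE). The receptor TOMM20 was at -0.21 ± 0.09 and did not pass. DNAJC15, an inner membrane J protein, rose to 15.96 ± 0.710 CPM at 1000 nM, against 10.01 ± 1.25 CPM in DMSO (SD), with an adjusted p of 0.0251 that went above 0.05 without 1000 nM replicate 1 or 2, or without any 1 of the DMSO chip 2 replicates, up to 0.0692.

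Factors of translation were lower in 28 of 56 tested cases and higher in 6, with a median of -0.37. EIF3J, a subunit of initiation factor 3 that helps to load and recycle the small ribosomal subunit, had 19.1, 25.7 and 22.7 CPM at 1000 nM, against 49.8, 63.99 and 74.1 CPM in DMSO, a log2 fold change of -1.48 ± 0.16 (SE, adjusted p = 7.18e-10). The release factor ETF1 changed by -1.37 ± 0.24, the beta subunit of initiation factor 2, EIF2S2, by -1.04 ± 0.20, and the helicase EIF4A1 by -0.76 ± 0.09. Of the 6 members that rose, 2 are inhibitors of translation. PDCD4, which blocks the helicase EIF4A, had 522, 473 and 476 CPM at 1000 nM, against 181, 196 and 213 CPM in DMSO. All treated libraries were far above the DMSO range, at 1.33 ± 0.09 (SE, adjusted p = 6.78e-17) on the log2 scale. EIF4EBP2, which sequesters the cap-binding protein, changed by 1.32 ± 0.11 (SE, adjusted p = 1.50e-13). EIF4E itself was at -0.34 ± 0.14 and EEF2 at 0.04 ± 0.09, and neither passed the test.

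Of 30 tested members of the chaperonin CCT, prefoldin and HSP90 list, 18 fell and 1 rose, with a median of -0.51. RUVBL2, an ATPase of the R2TP complex that assembles large complexes with HSP90, had 36.6, 32.5 and 37.4 CPM at 1000 nM, against 68.4, 80.2 and 88.04 CPM in DMSO, and its log2 fold change was -1.15 ± 0.15 (SE, adjusted p = 4.70e-09). Its partner RUVBL1 changed by -1.11 ± 0.13 and the chaperonin subunit CCT2 by -1.09 ± 0.12. PFDN5, a prefoldin subunit also known as a MYC-binding protein that represses MYC, rose, with 771, 644 and 561 CPM at 1000 nM, against 335, 387 and 404 CPM in DMSO. Replicate 1 was the highest, and the log2 fold change was 0.81 ± 0.11 (SE, adjusted p = 5.93e-08). The proteasome list had 21 members lower and 2 higher of 45 (1 higher without 1000 nM replicate 1 or without DMSO chip 1 replicate 2), with a median of -0.33. PSMG3, an assembly chaperone of the proteasome core, fell to 19.5 ± 3.40 CPM at 1000 nM, against 46.7 ± 3.16 CPM in DMSO (SD), at -1.25 ± 0.14 (SE, adjusted p = 5.20e-10) on the log2 scale. PSME1, a subunit of the activator PA28 that interferon induces, rose to 152 ± 15.3 CPM at 1000 nM, against 113 ± 2.55 CPM in DMSO (SD), at 0.43 ± 0.11 (SE, adjusted p = 0.00282).

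Splicing factors fell in 37 of 87 tested cases and rose in 6, with a median of -0.25. SF1, which binds the branch point of introns, had 23.4, 57.9 and 160.4 CPM at 1000 nM, against 173, 184 and 259 CPM in DMSO, a spread among the treated libraries of several fold with replicate 3 close to DMSO. The adjusted p was 0.0237, and it was 0.122 without 1000 nM replicate 1, 0.0909 without replicate 2, 0.0768 without DMSO chip 1 replicate 1 and 0.0793 without DMSO chip 2 replicate 1. The log2 fold change of -1.31 ± 0.45 became -2.33 without 1000 nM replicate 3. Among SR proteins, SRSF7 was at -1.02 ± 0.11, SRSF10 at -1.19 ± 0.13 and SRSF2 at -0.97 ± 0.13 (log2 fold change ± SE), and these, with SRSF1 at -0.54 ± 0.08 and SRSF3 at -0.61 ± 0.09, stayed called whichever of the 9 libraries was left out. SRSF4, SRSF6 and SRSF8 at -0.31 ± 0.11, -0.25 ± 0.10 and -0.42 ± 0.12, and SRSF5 on the other side at 0.31 ± 0.11, each lost the call without at least 1 library at 1000 nM and at least 1 of DMSO chip 2, with adjusted p up to 0.212, 0.168, 0.155 and 0.211. SRSF9 and SRSF11 were at -0.30 ± 0.12 and 0.21 ± 0.16 and did not pass. SF3B4, a subunit of the U2 particle, was the largest rise, with 31.5, 27.5 and 25.8 CPM at 1000 nM, against 9.73, 16.8 and 20.3 CPM in DMSO, at 0.81 ± 0.21 (SE, adjusted p = 0.00252) on the log2 scale. DNA repair genes fell in 32 of 88 tested cases and rose in 6 (3 without 1000 nM replicate 1), with a median of -0.33. BLM, a helicase of homologous recombination, fell to 4.86 ± 1.82 CPM at 1000 nM, against 12.7 ± 2.42 CPM in DMSO (SD), at -1.41 ± 0.29 (SE, adjusted p = 0.000114). The recombination genes BRCA1 and BRCA2 changed by -0.99 ± 0.15 and -1.28 ± 0.21. FANCL, the ubiquitin ligase of the Fanconi anaemia complex, rose to 28.9 ± 4.97 CPM at 1000 nM, against 17.4 ± 1.21 CPM in DMSO (SD), at 0.73 ± 0.17 (SE, adjusted p = 0.000336).

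The E-box CACGTG is the sequence that MYC and the clock factors are known to bind. The motif, which reads the same on both strands, was looked for in RefSeq promoters of GRCh38.p14, from 250 bases before to 50 bases after each gene's start, for 8730 of 12102 tested genes that matched by symbol. It was in 10.5% of these promoters. Among genes that fell at least 2-fold it was in 88 of 544 (16.2%), among genes that rose at least 2-fold in 44 of 575 (7.65%), and among genes that were not called in 488 of 5034 (9.69%). For nuclear transport it was in 5 of 32 promoters of members that fell and in 7 of 48 of the whole list, for mitochondrial import in 4 of 20 and 5 of 31, and for the clock list in 3 of 8 and 5 of 16. For translation factors it was in 2 of 24 promoters of members that fell (8.33%) and in 11 of 47 of the whole list (23.4%). These shares are descriptions, and a match is no evidence of binding. No match was found for XPOT or GRPEL2, which lack either the letters in this window or a promoter matched by symbol. A promoter from each of 3 lists is shown to let the motif be seen in place, with CACGTG in capitals, 5′ to 3′ along the gene: IPO4 at chr14:24188767-24189066, HSPA9 at chr5:138575352-138575651 and BHLHE41 at chr12:26124988-26125287, all on the minus strand. The motif begins 29, 19 and 48 bases before the start in IPO4, HSPA9 and BHLHE41.
IPO4: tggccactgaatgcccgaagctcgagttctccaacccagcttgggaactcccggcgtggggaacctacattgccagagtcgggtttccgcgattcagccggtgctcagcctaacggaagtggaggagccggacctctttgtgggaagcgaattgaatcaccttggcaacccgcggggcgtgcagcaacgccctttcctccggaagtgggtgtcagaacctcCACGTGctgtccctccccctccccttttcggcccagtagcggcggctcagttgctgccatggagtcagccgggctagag
HSPA9: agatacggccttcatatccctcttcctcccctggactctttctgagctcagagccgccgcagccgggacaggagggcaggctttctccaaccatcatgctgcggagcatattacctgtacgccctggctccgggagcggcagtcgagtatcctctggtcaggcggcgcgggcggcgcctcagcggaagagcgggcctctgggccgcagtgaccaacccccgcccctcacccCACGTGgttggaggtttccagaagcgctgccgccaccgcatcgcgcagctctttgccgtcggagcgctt
BHLHE41: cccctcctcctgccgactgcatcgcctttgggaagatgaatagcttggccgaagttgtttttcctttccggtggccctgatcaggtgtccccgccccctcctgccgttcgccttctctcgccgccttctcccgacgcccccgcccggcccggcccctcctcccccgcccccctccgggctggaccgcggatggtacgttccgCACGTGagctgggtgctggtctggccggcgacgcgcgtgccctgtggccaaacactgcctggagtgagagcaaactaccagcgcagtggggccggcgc

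Regulators upstream and downstream of PI3K and mTORC1 changed in both directions. PI3K makes the lipid that activates AKT, and mTORC1 is the kinase that couples growth factors and amino acids to protein synthesis. Of 37 tested members, 16 rose and 7 fell, with a median of 0.33. PIK3R3, a regulatory subunit of PI3K, had 66.98, 52.95 and 62.97 CPM at 1000 nM, against 7.37, 9.38 and 11.6 CPM in DMSO. All treated libraries held several times the DMSO level, and the log2 fold change was 2.74 ± 0.19 (SE, adjusted p = 3.88e-17). PIK3IP1, a transmembrane inhibitor of PI3K, changed by 2.73 ± 0.50 (SE, adjusted p = 0.000105). The regulatory subunit PIK3R1 and the AKT phosphatase PHLPP2 also rose, by 1.31 ± 0.17 and 1.52 ± 0.14 (log2 fold change ± SE). RRAGA, RRAGB and RRAGD, GTPases that bring mTORC1 to lysosomes, rose by 0.60 ± 0.13, 0.84 ± 0.20 and 0.82 ± 0.12.

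The members that fell included several restraints of mTORC1 signalling. EIF4EBP1, the cap-dependent translation repressor that mTORC1 inactivates, had 58.8, 50.3 and 40.8 CPM at 1000 nM, against 265, 277 and 309 CPM in DMSO. Its log2 fold change was -2.49 ± 0.12 (SE, adjusted p = 3.02e-22), opposite in sign to that of its relative EIF4EBP2. DDIT4 and SESN2, stress-induced inhibitors of mTORC1, changed by -2.13 ± 0.12 and -1.20 ± 0.10, the mTOR-binding inhibitor DEPTOR by -0.99 ± 0.22, and the core subunit MLST8 by -0.91 ± 0.12. The kinases did not pass the test, with MTOR at -0.32 ± 0.13, AKT1 at 0.08 ± 0.13, AKT2 at 0.04 ± 0.12, PIK3CA at -0.17 ± 0.18 and RPS6KB1 at -0.10 ± 0.15.

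**Figure D3:**
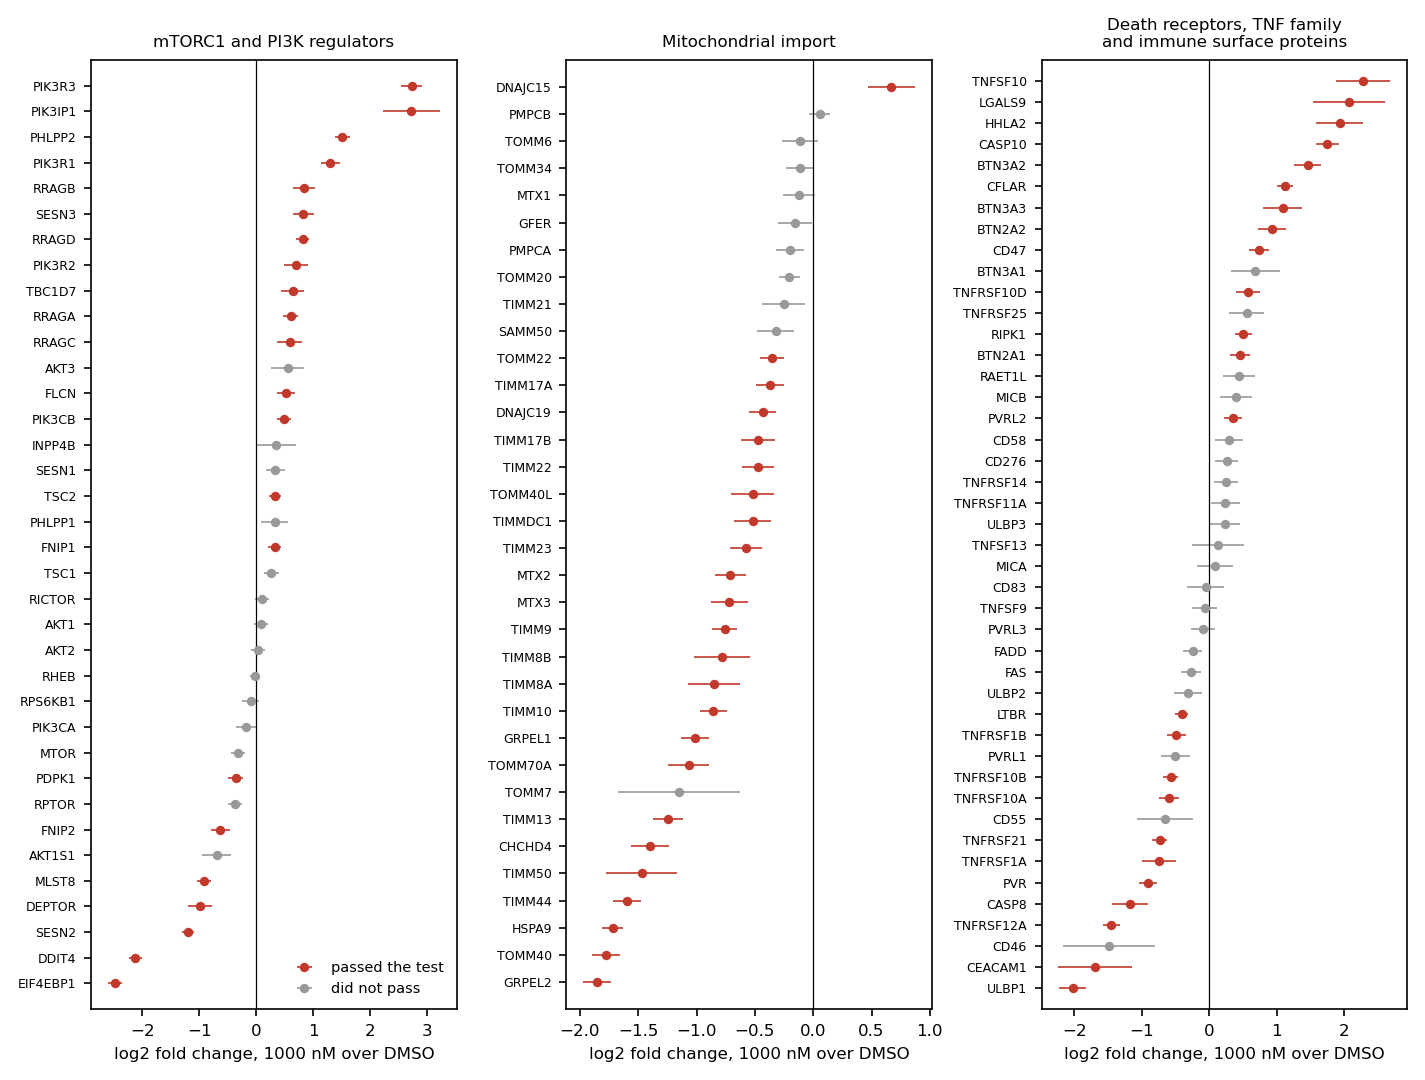
Log2 fold change with SE at 1000 nM over DMSO for tested members of the mTORC1 and PI3K list (36 of 37 genes), of mitochondrial import (34) and of death receptors, TNF family and immune surface proteins (44). Red points passed the test and grey points did not. In the middle panel DNAJC15 is the 1 red point right of 0 and 23 red points lie left of it, whereas the outer panels have red points on both sides.

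Fatty acid oxidation and the targets of PPAR receptors rose in 25 of 52 tested cases and fell in 7, with a median of 0.34. CYP4F12, an omega-hydroxylase of fatty acids, had 7.88, 9.65 and 8.93 CPM at 1000 nM, against 0.628, 1.12 and 2.04 CPM in DMSO, at 2.75 ± 0.43 (SE, adjusted p = 6.38e-07) on the log2 scale; it belongs to a family of closely related genes in which amplicons may share reads. The ketone body enzyme BDH2 changed by 1.71 ± 0.23, the isomerase ECI2 by 1.18 ± 0.21 and the trifunctional enzyme subunits HADHA and HADHB by 0.72 ± 0.08 and 0.89 ± 0.13. CPT1A, which admits long chain fatty acids to mitochondria, changed in the opposite direction, by -0.75 ± 0.13 (SE, adjusted p = 1.16e-05). So did the other isomerase ECI1, at -1.14 ± 0.16, and the electron transfer flavoprotein subunits ETFA and ETFB, at -0.92 ± 0.11 and -0.66 ± 0.13. PDK1, a kinase that shuts off pyruvate dehydrogenase, had 2.25, 3.80 and 6.03 CPM at 1000 nM, against 16.4, 17.3 and 21.8 CPM in DMSO. Replicate 3 was the highest of the treated libraries, and the log2 fold change of PDK1 was -2.12 ± 0.27 (SE, adjusted p = 5.92e-09). Its relatives PDK2 and PDK4 rose, by 1.15 ± 0.14 and 0.64 ± 0.16.

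The TCA cycle and pyruvate list went the other way, with 16 of 38 tested members lower, 5 higher and a median of -0.32, or -0.19 without 1000 nM replicate 1. GPT2, the mitochondrial transaminase that links pyruvate and glutamate, had 14.1, 16.1 and 12.6 CPM at 1000 nM, against 74.6, 84.1 and 92.5 CPM in DMSO. That is a log2 fold change of -2.56 ± 0.17 (SE, adjusted p = 1.21e-17). PCK2, which makes phosphoenolpyruvate in mitochondria, changed by -1.59 ± 0.09, the aspartate transaminase GOT1 by -1.40 ± 0.14 and citrate synthase CS by -0.85 ± 0.12. OGDHL, a relative of oxoglutarate dehydrogenase, rose to 17.8 ± 2.05 CPM at 1000 nM, against 11.2 ± 1.98 CPM in DMSO (SD), with an adjusted p of 0.00977 that became 0.06 without DMSO chip 1 replicate 1 and 0.0575 without DMSO chip 2 replicate 1. In amino acid breakdown, 10 of 47 rose and 10 fell. PRODH, the first enzyme of proline breakdown, rose to 15.0 ± 2.84 CPM at 1000 nM, against 6.99 ± 0.397 CPM in DMSO (SD), at 1.10 ± 0.24 (SE, adjusted p = 0.000191), and GLS2, a glutaminase, fell to 9.18 ± 1.78 CPM at 1000 nM, against 22.95 ± 2.17 CPM in DMSO (SD), at -1.31 ± 0.21 (SE, adjusted p = 7.33e-07).

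Detoxifying enzymes and transporters rose in 25 of 72 tested cases and fell in 8, with a median of 0.33. FMO5, a flavin monooxygenase of gut and liver, had 9.85, 11.1 and 12.1 CPM at 1000 nM, against 0.941, 1.82 and 3.26 CPM in DMSO, a log2 fold change of 2.59 ± 0.37 (SE, adjusted p = 2.07e-07), or 1.99 against DMSO chip 1 and 3.20 against chip 2. ALDH1A1, which makes retinoic acid from retinal, changed by 2.49 ± 0.25, the glutathione transferase GSTA4 by 2.36 ± 0.41 and the glucuronosyltransferase UGT2B7, which has close relatives, by 2.13 ± 0.40. The largest fall was that of CYP2J2, given above. Of 45 genes for iron, zinc and copper, 13 rose and 9 fell. SLC40A1 encodes ferroportin, the exporter of cellular iron, and had 22.2, 17.3 and 20.99 CPM at 1000 nM, against 3.26, 4.20 and 4.77 CPM in DMSO. All treated libraries held several times the DMSO level, at 2.31 ± 0.24 (SE, adjusted p = 4.22e-11) on the log2 scale. The ferritin heavy chain FTH1, which stores iron, changed by 1.57 ± 0.08, and the ferric reductase CYBRD1 by 1.70 ± 0.14. HEPH, the ferroxidase that works with ferroportin in enterocytes, fell instead, with 37.99, 48.9 and 44.2 CPM at 1000 nM, against 86.6, 94.8 and 99.9 CPM in DMSO, at -1.12 ± 0.12 (SE, adjusted p = 3.22e-10).

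Ion transport of epithelia had 21 members higher and 8 lower of 62 tested, with a median of 0.28. Beside SLC4A8, the sodium bicarbonate cotransporter SLC4A4 changed by 2.73 ± 0.26 (SE, adjusted p = 1.27e-11) and the sodium pump subunit ATP1B1 by 0.51 ± 0.12. CLIC4, a protein of the CLIC family, had 176, 202 and 219 CPM at 1000 nM, against 343, 369.7 and 458 CPM in DMSO, and fell by 0.94 on the log2 scale (SE 0.10, adjusted p = 5.84e-10). CLIC1 of the same family rose and stayed called whichever of the 9 libraries was left out, at 0.59 to 0.86 on the log2 scale. The chloride channel CFTR was at 0.35 ± 0.16 and did not pass. Glycan synthesis had 26 higher and 12 lower of 70. B3GALT4, a galactosyltransferase of gangliosides, rose to 6.46 ± 0.960 CPM at 1000 nM, against 1.35 ± 0.816 CPM in DMSO (SD), at 2.40 ± 0.46 (SE, adjusted p = 7.34e-05), or 1.75 against DMSO chip 1 and 3.06 against chip 2. FUT2, the fucosyltransferase that sets ABH antigens in secretions, changed by 1.53 ± 0.32, and GALNT3, GALNT5 and GALNT6, which start O-glycans, by 0.83 ± 0.11, 1.23 ± 0.13 and 1.18 ± 0.18. GALNT12 of the same family fell and stayed called whichever of the 9 libraries was left out, at -0.68 to -0.55 on the log2 scale. Among sialyltransferases, ST3GAL1, ST3GAL2, ST3GAL4 and ST6GAL1 fell, by 1.30, 0.98, 0.76 and 0.97 on the log2 scale, whereas ST6GALNAC2 rose by 1.88 ± 0.56. HS3ST1, a sulfotransferase of heparan sulfate, had 1.69, 4.39 and 4.10 CPM at 1000 nM, against 12.3, 17.2 and 20.5 CPM in DMSO, the largest fall of the list at -2.33 ± 0.30 (SE, adjusted p = 3.87e-08).

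Notch pathway genes changed in 13 of 28 tested cases, 8 up and 5 down. ADAM10, the protease that cuts Notch receptors at the cell surface once a ligand binds, had 272, 251 and 256 CPM at 1000 nM, against 104, 112 and 126 CPM in DMSO. The treated libraries lay close together, and the log2 fold change was 1.19 ± 0.10 (SE, adjusted p = 6.16e-14). The receptor NOTCH3 changed by 1.14 ± 0.24 and NOTCH1 by -0.77 ± 0.15. The ligands JAG1 and JAG2 changed by -1.30 ± 0.13 and -0.66 ± 0.14. MAML3, a coactivator that works with the cleaved receptor, fell to 2.26 ± 0.623 CPM at 1000 nM, against 8.93 ± 0.932 CPM in DMSO (SD), at -1.97 ± 0.33 (SE, adjusted p = 2.29e-06). The direct target HES1 was at 0.15 ± 0.26 and did not pass the test. The TGF-beta and BMP list had 12 higher and 13 lower of 46. LTBP1, which stores latent TGF-beta in the matrix, rose to 50.1 ± 3.39 CPM at 1000 nM, against 20.1 ± 0.957 CPM in DMSO (SD), at 1.32 ± 0.16 (SE, adjusted p = 5.05e-09), and INHBA, the activin A subunit, fell to 17.4 ± 1.62 CPM at 1000 nM, against 42.7 ± 2.17 CPM in DMSO (SD), at -1.29 ± 0.16 (SE, adjusted p = 3.20e-09). The receptors moved apart, with BMPR2 at 1.14 ± 0.11 and TGFBR2 at -1.22 ± 0.32, and SMAD7, an inhibitor that the pathway induces, rose by 0.75 ± 0.12. SMAD6, SKIL and BAMBI fell and stayed called whichever of the 9 libraries was left out. Their log2 fold changes then ran from -0.93 to -0.74, -0.88 to -0.55 and -0.78 to -0.46. ID1 also fell, at -0.52 to -0.42. It lost the call without 1000 nM replicate 1 or DMSO chip 2 replicate 3, with adjusted p up to 0.0733.

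Cytokine receptors and JAK-STAT genes rose in 12 of 42 tested cases and fell in 5. STAT6, which transmits interleukin 4 and 13 signals, had 448, 436 and 356 CPM at 1000 nM, against 184, 200.1 and 228 CPM in DMSO, at 1.02 ± 0.10 (SE, adjusted p = 8.00e-12) on the log2 scale. STAT2 changed by 0.97 ± 0.14. IL20RA and IL20RB, subunits of receptors of the interleukin 20 family, fell, with IL20RA at 9.60 ± 1.72 CPM at 1000 nM, against 24.2 ± 6.90 CPM in DMSO (SD) and -1.31 ± 0.26 (SE, adjusted p = 0.000237), and IL20RB at -1.29 ± 0.37. SOCS3, a feedback inhibitor that STAT3 induces, was at -0.05 ± 0.51 and did not pass.

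Among 20 tested clock genes 8 fell and 2 rose, but 5 fell without 1000 nM replicate 1, and the median of -0.10 then became 0.08. Of the 2 rises, 1 rests on the libraries named for CRY2 below. BHLHE41, a repressor of the clock also known as DEC2, had 27.9, 20.8 and 20.99 CPM at 1000 nM, against 102, 118 and 127 CPM in DMSO. The spread was tight in both groups, and the log2 fold change was -2.33 ± 0.13 (SE, adjusted p = 1.83e-20); its promoter is printed above. NR1D1, the haem receptor REV-ERB alpha, changed by -1.25 ± 0.25. CRY2, a repressor cryptochrome, rose to 25.4 ± 6.22 CPM at 1000 nM, against 16.8 ± 1.85 CPM in DMSO (SD), with an adjusted p of 0.02 that became 0.227 without 1000 nM replicate 3, 0.0819 without DMSO chip 1 replicate 1 and 0.0879 without DMSO chip 2 replicate 1. The activators CLOCK and ARNTL were at -0.01 ± 0.15 and -0.19 ± 0.36 and did not pass. Of 27 nuclear receptors 8 rose and 3 fell (5 rose without DMSO chip 1 replicate 2). NR4A3, an orphan receptor of the immediate early class, rose to 6.72 ± 2.28 CPM at 1000 nM, against 1.94 ± 0.497 CPM in DMSO (SD), at 1.78 ± 0.41 (SE, adjusted p = 0.00211), while NR5A2, a receptor of gut and liver, changed by 1.71 ± 0.25. HNF4G and HNF4A, factors of intestinal epithelium, fell, with HNF4G at 17.2, 23.99 and 26.3 CPM at 1000 nM, against 53.8, 56.1 and 67.6 CPM in DMSO and -1.39 ± 0.16 (SE, adjusted p = 7.68e-10), and HNF4A at -0.65 ± 0.12.

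Enzymes that modify DNA and histones gave 16 rises and 13 falls among 77 tested genes. HDAC9, a class IIa histone deacetylase, had 5.63, 4.97 and 5.79 CPM at 1000 nM, against 0, 1.07 and 2.20 CPM in DMSO, at 2.45 ± 0.53 (SE, adjusted p = 0.000817) on the log2 scale. KDM2B and KDM5A also rose and stayed called whichever of the 9 libraries was left out. Their log2 fold changes then ran from 0.71 to 0.80 and from 0.71 to 0.99. DNMT1, the maintenance methyltransferase of DNA, changed by -1.32 ± 0.13 (SE, adjusted p = 1.31e-11). EZH2, which methylates histone H3 in the Polycomb complex, changed by -0.76 ± 0.19, and the arginine methyltransferases PRMT3 and PRMT5 by -1.57 ± 0.21 and -0.95 ± 0.11. SETD8, the methyltransferase of histone H4 that is needed in the cell cycle, had 1.13, 4.97 and 10.6 CPM at 1000 nM, against 20.4, 22.7 and 28.1 CPM in DMSO. The treated libraries spread widely with replicate 3 the highest, and the log2 fold change of -2.01 ± 0.47 (SE, adjusted p = 0.0013) became -2.94 without replicate 3.

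Secreted and membrane-bound proteases and their inhibitors rose in 27 of 49 tested cases and fell in 7, with a median of 0.58, or 0.43 without a filter on low counts. Beside PRSS8, the membrane protease ST14 that prostasin works with changed by 0.66 ± 0.10, and the inhibitors of both, SPINT1 and SPINT2, by 0.66 ± 0.11 and 0.76 ± 0.10. MMP14, the membrane metalloprotease that activates MMP2, changed by 1.56 ± 0.13, the urokinase PLAU by 1.27 ± 0.31 and its receptor PLAUR by 0.93 ± 0.17. Of the TIMP inhibitors of metalloproteases, TIMP1, TIMP2 and TIMP3 changed by 0.73 ± 0.10, 1.05 ± 0.12 and 0.76 ± 0.25, and TIMP4 by -1.09 ± 0.28. The adjusted p of TIMP3, 0.0205, became 0.15 without 1000 nM replicate 2, and the call was also lost without DMSO chip 1 replicate 1. MMP17 had 4.78, 7.02 and 6.76 CPM at 1000 nM, against 19.4, 20.9 and 23.5 CPM in DMSO, the largest fall of the list at -1.76 ± 0.22 (SE, adjusted p = 3.06e-09). Several of these genes are also expressed by fibroblasts. In these cultures of the LoVo cell line, fibroblast markers summed to 77.7 to 85.5 CPM at 1000 nM, against 24.8 to 33.6 CPM in DMSO. Of those 12 markers, COL1A2, COL6A3, THY1, FAP and POSTN were at 0 in the 9 libraries. How the marker levels relate to the protease list was not tested.

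Plasma protein genes passed the filter in 15 of 72 cases, of which 9 rose and 2 fell (1 fell when 1000 nM replicate 2 or 3, DMSO chip 1 replicate 2 or 3, or DMSO chip 2 replicate 3 was left out), with a median of 0.83. That median was 0.49 without a filter on low counts. Beside CFB, the complement protease C1R changed by 1.93 ± 0.32, the secreted chaperone clusterin, CLU, by 1.54 ± 0.13, the complement inhibitor subunit C4BPB by 1.57 ± 0.25 and the anticoagulant precursor PROC by 1.73 ± 0.35. Axon guidance genes rose in 17 of 33 tested cases and fell in 3, with a median of 0.42. PLXNC1, a plexin receptor of semaphorin 7A, had 81.1, 127 and 143 CPM at 1000 nM, against 21.5, 24.1 and 27.6 CPM in DMSO. Replicate 1 was the lowest treated library and held several times the DMSO level, at 2.25 ± 0.19 (SE, adjusted p = 1.22e-11) on the log2 scale. Its ligand SEMA7A changed by 0.90 ± 0.18, and SEMA3C, SEMA5A and SEMA6A by 1.57 ± 0.12, 1.26 ± 0.15 and 1.23 ± 0.33. RGMB, a ligand of neogenin and coreceptor of BMP, had 10.4, 9.36 and 8.20 CPM at 1000 nM, against 19.8, 24.1 and 26.6 CPM in DMSO, at -1.36 ± 0.19 (SE, adjusted p = 2.34e-07). NRP2, a coreceptor of class 3 semaphorins, changed by -1.01 ± 0.14 and NRP1 was at 0.05 ± 0.17 without passing.

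Death receptor and immune surface genes rose in 13 of 44 tested cases and fell in 11. TNFSF10 encodes TRAIL, a ligand that induces apoptosis, and had 11.3, 7.90 and 11.1 CPM at 1000 nM, against 0.825, 1.98 and 3.51 CPM in DMSO. On the log2 scale TNFSF10 rose by 2.29 ± 0.40 (SE, adjusted p = 3.95e-06). Its death-inducing receptors TNFRSF10A and TNFRSF10B changed in the other direction, by -0.59 ± 0.15 (SE, adjusted p = 0.00143) and -0.57 ± 0.11 (SE, adjusted p = 5.31e-05). Of the genes that act next in the pathway, CASP8 changed by -1.17 ± 0.27, the related CASP10 by 1.75 ± 0.18, CFLAR, a relative of CASP8 without protease activity that can block it, by 1.13 ± 0.12 and the kinase RIPK1 by 0.51 ± 0.13 (log2 fold change ± SE). FADD and FAS were at -0.25 ± 0.14 and -0.28 ± 0.15 and did not pass. ULBP1, a stress ligand that natural killer cells recognise through NKG2D, had 10.1, 5.85 and 8.44 CPM at 1000 nM, against 27.3, 31.5 and 45.4 CPM in DMSO. For ULBP1 the log2 fold change was -2.02 ± 0.20 (SE, adjusted p = 3.58e-11). The other NKG2D ligands MICA and ULBP2 were at 0.09 ± 0.26 and -0.32 ± 0.21, with neither passing the test. The receptor of TWEAK, TNFRSF12A, changed by -1.45 ± 0.13, and the phagocytosis inhibitor CD47 by 0.74 ± 0.15.

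S100 proteins and annexins rose in 5 of 19 tested cases and fell in 2 (1 without 1000 nM replicate 1). S100P, a calcium-binding protein abundant in many carcinomas, had 184, 131 and 142 CPM at 1000 nM, against 492, 521 and 582 CPM in DMSO, at -1.78 ± 0.11 (SE, adjusted p = 1.08e-18) on the log2 scale. ANXA11, an annexin of secretory membranes, rose to 566 ± 82.3 CPM at 1000 nM, against 315 ± 9.15 CPM in DMSO (SD), at 0.85 ± 0.09 (SE, adjusted p = 5.84e-10). In eicosanoid metabolism 6 of 21 rose and 3 fell. PLA2G2A, the secreted phospholipase A2 of Paneth cells, had 213, 174 and 202 CPM at 1000 nM, against 27.8, 30.6 and 34.3 CPM in DMSO. Each treated library held several times the level of the highest DMSO library, at 2.67 ± 0.12 (SE, adjusted p = 1.40e-23) on the log2 scale. HPGD, which inactivates prostaglandins, changed by 2.05 ± 0.13 (SE, adjusted p = 6.32e-18), and PTGS2, the cyclooxygenase that makes their precursor, had 42.5, 33.4 and 32.3 CPM at 1000 nM, against 68.3, 76.7 and 83.9 CPM in DMSO, at -1.08 ± 0.16 (SE, adjusted p = 2.20e-07). LYZ, which Paneth cells and leukocytes both make, averaged 71.1 CPM at 1000 nM and 10.9 CPM in DMSO and made up most of the leukocyte marker sum; its part in these results was not tested.

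Few genes were called between 1000 nM and the next lower doses. Only MALL, a membrane protein of the MAL family, was called against 100 nM (0.00826% of tested genes), and edgeR called no gene against 300 nM (0%). At an unadjusted p below 0.05 there were 815 genes (6.73%) against 100 nM and 1466 (12.1%) against 300 nM, and the smallest adjusted p against 300 nM was 0.0761. DESeq2 called 4 genes against 300 nM, limma voom called 0, and edgeR called 270 without a filter on low counts. Without replicate 1 at 1000 nM, 363 genes were called against 300 nM. Against 100 nM, 3 genes were called without any 1 of the replicates at 1000 nM. MALL had 32.6, 33.4 and 29.9 CPM at 1000 nM, against 77.7, 81.1 and 84.5 CPM in DMSO. In between, it averaged 73.3, 70.01, 55.2 and 41.1 CPM at 10, 30, 100 and 300 nM. Its log2 difference between 1000 and 100 nM was -0.79 ± 0.13 (SE, adjusted p = 0.0012). With only the libraries of those doses in the fit, the adjusted p was 0.198.

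The named genes differed in the dose at which their mean level left that of DMSO, and all doses are set against the same DMSO libraries. CXCR4 averaged 11.4, 4.65, 2.32, 2.67 and 2.96 CPM at 1, 3, 10, 100 and 1000 nM, so that it was at its floor from 10 nM. CYP2J2 averaged 81.2, 47.4, 29.8, 16.2 and 10.2 CPM at 1, 10, 30, 100 and 1000 nM, a fall spread over the higher doses. PRSS8 averaged 1.86, 2.29, 3.15, 6.31 and 8.46 CPM at 3, 10, 30, 100 and 1000 nM, and most of its rise came above 10 nM. In contrast, PLA2G2A was at 99.6 CPM at 1 nM and highest at 30 nM, with 246 CPM, before 196 CPM at 1000 nM. ULBP1 averaged 33.4 CPM at 1 nM and 12.3 at 3 nM and changed little above that, with 8.14 CPM at 1000 nM. These orders were read from means of 3 libraries and were not tested.

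**Figure D4:**
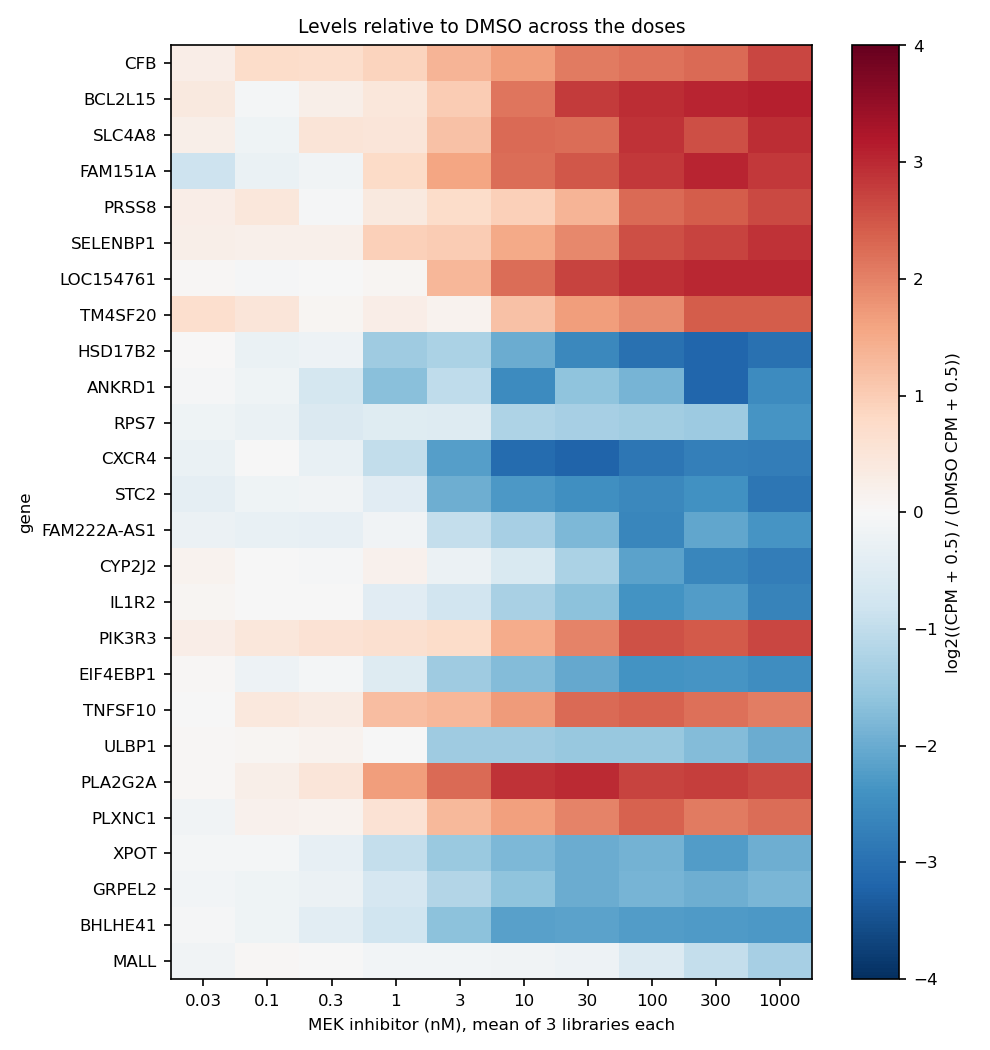
Mean level of 26 named genes at each dose relative to DMSO, as log2 of the ratio of CPM + 0.5, with doses in nM from low to high (3 libraries each) and DMSO as the 0 of the colour scale. Red is above DMSO and blue below. CXCR4 and BHLHE41 are dark blue from 10 nM, whereas CYP2J2, IL1R2 and MALL deepen towards 1000 nM.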

How the data were processed

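In each sample, 10 ng of total RNA was amplified gene by gene (Ion AmpliSeq) and read on Ion Torrent, per the labels' protocols. The authors deposited whole-number counts per gene with no normalization. The submitters' processing notes name hg19, and no aligner or counter is given in the sources used here. Values of the matrix and the single files were equal in all 36 libraries. Each file had 20812 rows, of which 10 are spike-in controls with 0 counts. The position and strand of amplicons were not used, so reads shared with near-identical or overlapping genes cannot be told apart, and levels of different genes are not compared. Counts are not corrected for repeated amplification.

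Counts were fitted with edgeR 4.0.16 in R 4.3.3 over all 36 libraries in 12 groups (filterByExpr, TMM, robust quasi-likelihood, 24 residual degrees of freedom). The larger p of the contrasts against DMSO chip 1 and chip 2 was adjusted by Benjamini-Hochberg over 12102 genes. Fold changes are relative to the average of the DMSO groups of chip 1 and chip 2, and the SE is the larger of both contrasts. DMSO libraries with the same number on the 2 chips deviated from their group means together (r from 0.095 to 0.152). Their chi-square per degree of freedom was 1.53 to 1.58, against 2.07 to 2.7 for other numbers across chips and 1.6 to 2.47 within a chip. DMSO means ± SD therefore use 3 means of same-numbered libraries. Dose contrasts came from the same fit.

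The gene lists, the markers and the naming rule were chosen with earlier results of these data known. The rule takes the 8 largest rises and falls, and per list the largest rise and fall, among called genes that reach a mean of 5 CPM in either group, without overlap between groups; it passes over classic ERK targets and genes of an earlier account. Some genes and 1 gene list are counted in totals but not reported or drawn here. It also takes up to 3 genes per direction for each dose contrast. The test was run on simulated counts of 11754 genes for 1000 nM against DMSO: for log2 changes of 0.5, 1, 2 and 3 in 50 genes each, it recovered 34%, 88%, 100% and 100%, with 1 false call. The changed genes were drawn only from those with higher DMSO counts, so recovery is not known for genes such as CFB. Far fewer genes were changed than were called in the data. Every group was given the same spread per gene, although replicates at 1000 nM lay farther apart than DMSO libraries. Alternatives used DESeq2 1.42.0 and limma 3.58.1; figures used matplotlib 3.10.9 in Python 3.11.15.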

Additional observations from a re-analysis of the deposited data

How the results depend on the processing

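Between 1000 nM and DMSO, all 21 alternatives gave a count within 1.5 times of 5064 called genes: 4421 (without 1000 nM replicate 1) to 4915 with 1 library left out, 5068 with RLE size factors, 4984 without a filter on low counts, 5031 with at least 1 CPM in 3 libraries, 4887 with DESeq2, 5033 with limma voom, 4716 with only the libraries compared, 4813 without 3 libraries that stood apart in an earlier account (0.1 nM replicate 2, 1 nM replicate 1 and 1000 nM replicate 1), 6623 against the mean of both DMSO groups, 6040 and 5800 against DMSO chip 1 or chip 2 alone and 6201 with DMSO summed over chips. With the replicate number as a block it was 5044. The numbers were not used as pairs, since same-numbered 1000 nM and DMSO libraries deviated together with r from only -0.075 to 0.038. Against 100 nM, the 1 call became 5 without a filter, 0 with only the libraries compared, 4 without the 3 libraries that stood apart, and 1 to 3 with 1 library left out. Against 300 nM, the 0 calls became 270 without a filter, 4 with DESeq2, 919 without the 3 libraries that stood apart, and 0 to 363 with 1 library left out; the cause was not tested. Of 69 named genes, 64 kept the call under all 21 alternatives, 0 reversed, and 5 (CRY2, DNAJC15, KPNA6, OGDHL and SF1) lost it under at least 1. Of 56 list counts, 15 moved by more than 1.5 times under at least 1 alternative. Beside those given with the lists, against the mean of both DMSO groups rises went to 17 for amino acid breakdown (10), 26 for DNA and histone modifying enzymes (16), 11 for DNA repair (6) and 13 for splicing factors (6), and falls to 14 for drug conjugation (8); against chip 1 alone, S100 and annexin rises went to 8 (5), nuclear receptor falls to 5 (3) and nuclear transport rises to 2 (1). Counting depth limits genes near 5 CPM: 1000 nM replicates held 70 counts of CFB in all and 7 of ANKRD1.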
